A study of Gallus gallus with 8 samples.

Results

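A set of 88 genes, of 17108 in the table, rose in 2 steps in chicken neural crest cells as more DAN protein was added to the dish. They were chosen from the deposited RPKM values, which are reads per kilobase of gene scaled for sequencing depth. The depth used was the library total adjusted by a TMM factor, and not the total alone. A gene was taken when its mean in untreated cells was at least 0.5 RPKM, when the mean at 1 µg/ml was at least 25% above the untreated mean, when the mean at 10 µg/ml was at least 25% above that at 1 µg/ml, and when the whole rise was at least 2-fold. In addition, every library at 1 µg/ml had to lie above both untreated libraries, and every library at 10 µg/ml above every library at 1 µg/ml. The dose pattern of these genes is therefore a description of what chose them, and no test supports it. Calls from a model over all genes are given further on for the same contrasts only beside their background.

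Neural crest cells leave the dorsal neural tube of the embryo and migrate as streams into the head and trunk. Bone morphogenetic proteins (BMPs) are secreted signals that take part in forming the crest, and they act through receptor kinases and SMAD transcription factors. DAN, the product of NBL1, is a secreted protein that binds BMPs and keeps them from their receptors. By its title, the study asked how DAN keeps crest migration collective and limits invasion.

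The cells came from leghorn chicken embryos at stage 8 of Hamburger and Hamilton. Neural tube pieces from rhombomeres 3 to 5, which are hindbrain segments, were plated on fibronectin and poly-D-lysine, and DAN was present overnight at 0, 1 or 10 µg/ml. The tube and any ectoderm were then lifted off and the attached cells were lysed, at 200 to 1000 cells per sample per the labels. The untreated group analysed here has 2 libraries (replicates 2 and 3), and each dose has 3 (replicates 1, 2 and 3), which the labels call biological replicates. An untreated replicate 1 is not among the samples given. A library holds the cells of a whole dish, so more cells of a kind and more RNA per cell cannot be told apart.

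The libraries held 44338765 to 199084828 counts. Between 9300 and 9557 genes reached 1 RPKM in a library. The genes are listed by Ensembl ID only, and a table of 25635 RefSeq genes (assembly GRCg7b) paired 0 of them with a symbol. No gene name or role is therefore given for the 88 genes, and markers of crest or of other cell types were not analysed here. The 2 genes printed by ID are the one with the highest fold at 10 µg/ml over untreated and the one with the highest level at 10 µg/ml.

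The requirements narrowed the table in turn. A mean of at least 0.5 RPKM in untreated cells was found for 10957 genes, and 2761 of them also made the first step. The second step left 422 genes, the 2-fold total 268, the separation of untreated from 1 µg/ml libraries 182 and the separation of the doses 88. Of the 10957 genes, 20.3% had every library at 1 µg/ml above both untreated ones, 13.4% had every library at 10 µg/ml above all at 1 µg/ml, and 2.51% had both orders at once, whatever the size of their steps. The same orders downward were both seen for 5.11% of these genes. The minimum on untreated level admits genes that fall to very low levels but leaves out genes that rise from them. These upward and downward shares are therefore not like for like. With the rule mirrored, so that levels fall in steps and the mean at 10 µg/ml is at least 0.5 RPKM, 275 genes were found.

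The edges of the rule were crowded. The lowest whole rise among the 88 genes was 2.002-fold, and the highest among the 57 genes that missed that requirement alone was 1.998-fold. Separation of the doses was missed alone by 94 genes. The nearest of these had a lowest value at 10 µg/ml of 0.9985 times the highest at 1 µg/ml, and the nearest gene inside had 1.001 times. Separation of 1 µg/ml from untreated was missed alone by 33 genes, the nearest at 0.9992 times, against 1.001 times for the nearest gene inside. The lowest untreated mean inside was 0.5205 RPKM, and 65 genes fell short of the minimum level alone, the nearest at 0.495 RPKM. Few genes missed a step alone: 2 genes missed the first step alone (the nearest at 1.247-fold against 1.262-fold inside) and 10 the second (1.24-fold against 1.251-fold inside).

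ENSGALG00000015079 had the highest fold of the 88 genes. It stood at 0.474 and 2.16 RPKM in untreated replicates 2 and 3, at 22.1, 26.9 and 2.67 RPKM in replicates 1, 2 and 3 at 1 µg/ml, and at 34.7, 35.5 and 28.3 RPKM in replicates 1, 2 and 3 at 10 µg/ml. Replicate 3 at 1 µg/ml lay close to the higher untreated library, while the other two at that dose lay close to the 10 µg/ml group. The means were 1.31 ± 1.19 RPKM (SD, n = 2), 17.2 ± 12.9 RPKM (SD, n = 3) and 32.8 ± 3.95 RPKM (SD, n = 3), a rise of 13.1-fold at 1 µg/ml and of 25-fold at 10 µg/ml over untreated. These values came from 26 and 219 counts in the untreated libraries and from 214 to 4588 counts in those with DAN. Its log2 ratio of 10 µg/ml over untreated, 4.64, was 3.93 when untreated replicate 2 was left out and 6.11 when untreated replicate 3 was. That of 1 µg/ml over untreated, 3.71, was then 3.0 and 5.19.

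ENSGALG00000006010 had the highest level at 10 µg/ml. It stood at 185.8 and 173 RPKM in untreated replicates 2 and 3, at 196, 282 and 269 RPKM in replicates 1, 2 and 3 at 1 µg/ml, and at 436, 446 and 333 RPKM in replicates 1, 2 and 3 at 10 µg/ml. Replicate 1 at 1 µg/ml lay 1.06 times above the higher untreated library, and the lowest library at 10 µg/ml lay 1.18 times above the highest at 1 µg/ml. The means were 179 ± 9.1 RPKM (SD, n = 2), 249 ± 46.2 RPKM (SD, n = 3) and 405 ± 62.4 RPKM (SD, n = 3). Its second step, 1.63-fold, was larger than its first, 1.39-fold, and together they made 2.26-fold.

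**Figure D1:**
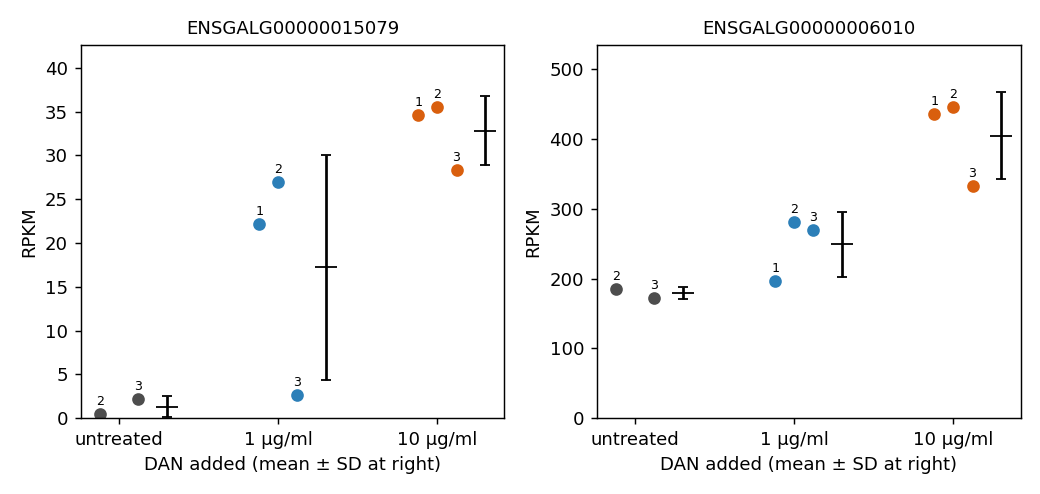
RPKM (linear axis) of the 2 genes given by ID in each library, with the replicate number above each point and the group mean ± SD at the right of each group. ENSGALG00000015079 had 1 library at 1 µg/ml, replicate 3, near the untreated level. ENSGALG00000006010 started from 179 RPKM and rose by smaller folds in both steps (1.39 and 1.63, against 13.1 and 1.9).

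Some other genes of the set, picked after their values were seen and not given by ID, show its range. The widest separation of groups belonged to the gene with the third-highest fold. Its values were 6.44 and 7.36 RPKM in untreated replicates 2 and 3, 23.5, 25.3 and 21.8 RPKM in replicates 1, 2 and 3 at 1 µg/ml, and 74.0, 52.4 and 49.9 RPKM in replicates 1, 2 and 3 at 10 µg/ml. The lowest library of each dose was thus 2.96 and 1.97 times the highest of the group below it. The gene with the third-highest level at 10 µg/ml combined abundance with a large rise. It stood at 48.8 and 76.6 RPKM in untreated replicates 2 and 3, at 212, 194 and 177 RPKM in replicates 1, 2 and 3 at 1 µg/ml, and at 357, 309.6 and 274 RPKM in replicates 1, 2 and 3 at 10 µg/ml, which was 5.00-fold over untreated.

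The lower end of the set held genes near the minimum level. The gene with the lowest untreated mean stood at 0.383 and 0.658 RPKM in untreated replicates 2 and 3, at 0.837, 0.725 and 0.813 RPKM in replicates 1, 2 and 3 at 1 µg/ml, and at 1.04, 1.18 and 1.04 RPKM in replicates 1, 2 and 3 at 10 µg/ml. Its groups were apart, from 99 and 315 counts in the untreated libraries and 237 to 818 counts in the others. The second-highest fold, 8.75-fold, belonged to a gene of 100 bases with few reads. It stood at 0.901 and 5.55 RPKM in untreated replicates 2 and 3, at 7.49, 5.79 and 11.5 RPKM in replicates 1, 2 and 3 at 1 µg/ml, and at 26.0, 14.1 and 44.6 RPKM in replicates 1, 2 and 3 at 10 µg/ml. These levels rested on 5 counts in untreated replicate 2 and 57 in untreated replicate 3.

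Several of the highest folds rested on few reads. The lowest count in any library was under 50 for 10 of the 88 genes, and 5 of these were among the 10 genes with the highest folds. Genes shorter than 150 bases numbered 4. The lowest count of a gene was in untreated replicate 2 for 86 of 88 genes. That library was also among the shallower ones, with 47523574 counts, against 112505258 in untreated replicate 3. The rule puts both untreated libraries lowest in RPKM, so this outcome was favoured in advance. Over the whole set the lowest count of a gene ran from 4 upwards, with a median of 548.

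The set spanned low and high expression. Mean levels in untreated cells ran from 0.52 to 182 RPKM with a median of 4.74, beside a median of 6.85 RPKM for the 10957 genes at or over the minimum. At 1 µg/ml they ran from 0.792 to 286 RPKM with a median of 8.18, and at 10 µg/ml from 1.08 to 405 RPKM with a median of 12.3. At 10 µg/ml 14 genes were over 100 RPKM and 24 were under 5 RPKM. Membership was spread over untreated levels: in the quartile groups of the 10957 genes, from the lowest level to the highest, 24, 25, 18 and 21 of the 88 genes were found, in groups of 2739 or 2740 genes. In 70 of the 88 genes (79.5%) every library was over 1 RPKM, beside 75.1% of the 10957.

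**Figure D2:**
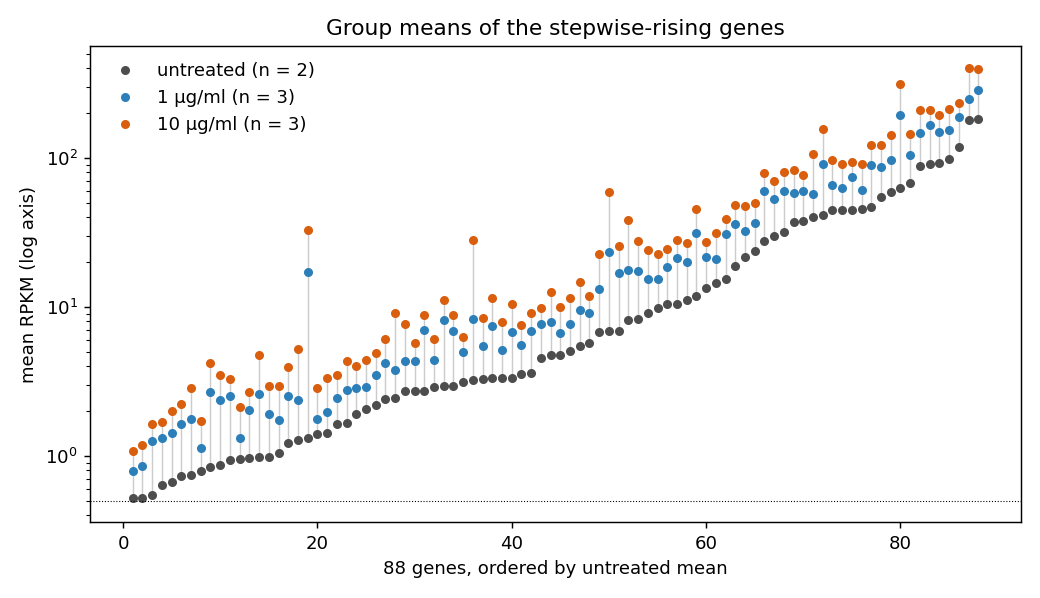
Mean RPKM (log axis) of each of the 88 genes in untreated cells, at 1 µg/ml and at 10 µg/ml, with genes ordered by their untreated mean and the minimum of 0.5 RPKM as a dotted line. Untreated means run from 0.52 to 182 RPKM, and the vertical lines join the untreated mean to the mean at 10 µg/ml.

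With all libraries, the first step was larger than the second in 72 of the 88 genes. The log2 ratio of means at 1 µg/ml over untreated had a median of 0.75 (quartiles 0.64 and 1.06, range 0.34 to 3.71), and that of 10 over 1 µg/ml a median of 0.54 (quartiles 0.41 and 0.65, range 0.32 to 1.77). The first step held a median of 59.3% of the whole log2 rise, from 32.7% to 80.0%. For the 10957 genes at or over the minimum, the median log2 ratio was -0.04 for the first step and -0.02 for the second. The balance of the steps rested in part on untreated replicate 2. With the same 88 genes and without that library, the first step was the larger in 52, and the median log2 ratios over untreated were 0.58 at 1 µg/ml and 1.16 at 10 µg/ml. Without untreated replicate 3 they were 1.08 and 1.66, and the first step was the larger in 74 genes. Without single dosed libraries that count ran from 64 (without replicate 2 at 10 µg/ml) to 79 (without replicate 1 at 10 µg/ml). The rule used the same means, and the share over other genes is not given here. Both steps share the libraries at 1 µg/ml, so a high mean there enlarges the first step and shrinks the second.

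Over both steps, the fold at 10 µg/ml over untreated had a median of 2.53 and quartiles of 2.17 and 3.06. Without untreated replicate 2, 56 of the 88 genes reached a mean at 10 µg/ml of at least 2 times untreated, and without replicate 1 at 10 µg/ml 70 did. Without any other single library 83 to 88 did. The rule chose the 88 for this fold in the same libraries, and the share over other genes is not given here. With all libraries, a rise of at least 3-fold was seen in 26 genes and one of at least 4-fold in 9. The first step alone was at least 2-fold in 27 genes and the second in 5. Genes over 100 RPKM at 10 µg/ml had a median log2 ratio of 10 µg/ml over untreated of 1.18, and those under 5 RPKM one of 1.44.

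**Figure D3:**
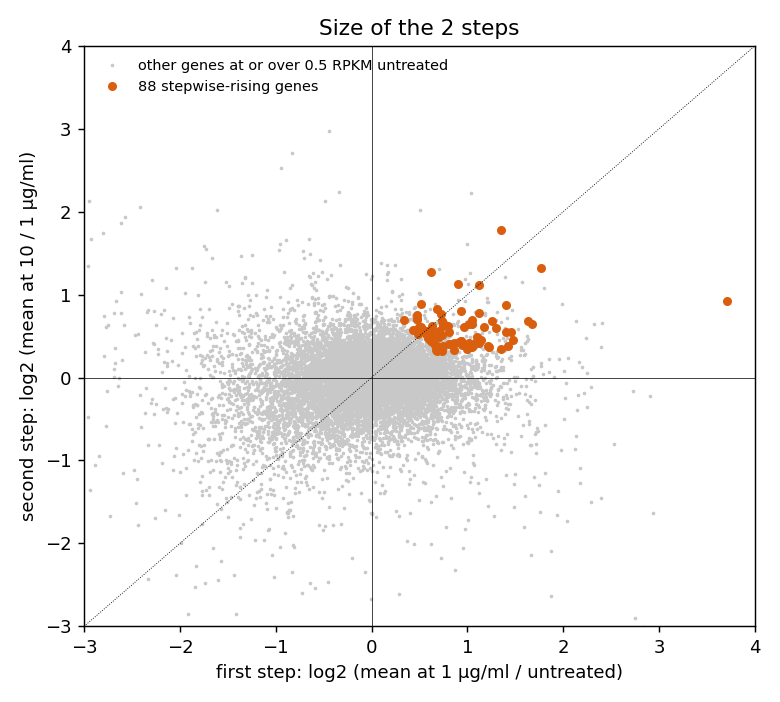
First step (log2 of the mean at 1 µg/ml over untreated) against second step (log2 of the mean at 10 over 1 µg/ml) for the 88 genes and, in grey, 10862 other genes at or over 0.5 RPKM in untreated cells with all means above 0, of which 42 lie outside the axes. Of the 88 genes, 72 lie below the dotted line of equal steps.

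The gap between the doses was narrower than that between untreated cells and the lower dose. These gaps are not like for like, since the highest value below is taken over 3 libraries at 1 µg/ml but over 2 untreated ones. A highest value over more libraries narrows a gap by itself. The lowest library at 10 µg/ml was a median of 1.10 times the highest at 1 µg/ml, and the lowest library at 1 µg/ml a median of 1.27 times the higher untreated one. In 21 genes the doses were parted by 5% or less, and in 10 genes untreated cells and 1 µg/ml were. Both gaps were at least 25% in 6 genes. The rule chose the 88 genes for such gaps, and the shares over other genes are not given here. The median coefficient of variation of the 88 genes was 27.3% in untreated cells, 9.91% at 1 µg/ml and 15.1% at 10 µg/ml. For the 10957 genes at or over the minimum it was 25.4%, 12.7% and 13.3%. Untreated values come from 2 libraries and the others from 3, so untreated and dosed values are not like for like. A small spread at 1 µg/ml is favoured by the rule, which needs those libraries to fit between the other groups.

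The order of replicates inside a group was uneven. The rule does not set it directly, although the separation it asks for bears on it. At 10 µg/ml, replicate 1 was the highest library for 66 of 88 genes (75.0%), beside 34.8% of the 10957 genes at or over the minimum. It was the lowest for 5 of the 88. In the untreated pair, replicate 3 lay above replicate 2 for 72 of 88 genes (81.8%), beside 54.0% of the 10957. At 1 µg/ml, replicate 2 was the lowest for 45 of 88 genes (51.1%), beside 30.9%. Genes that fell by the mirrored rule had replicate 1 at 10 µg/ml as their lowest library in 205 of 275 cases (74.5%), where it was the lowest for 32.6% of the 10957. The genes are not independent of each other, so these shares describe 8 libraries and carry no test.

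The replicate differences were also seen in the size of the rise. Relative to the untreated mean, the median gene of the set was at 0.831 and 1.17 times in untreated replicates 2 and 3. At 1 µg/ml it was at 1.8, 1.65 and 1.74 times in replicates 1, 2 and 3. At 10 µg/ml it was at 2.83, 2.26 and 2.39 times in replicates 1, 2 and 3. Together the 88 genes took 0.372% and 0.401% of all counts in untreated replicates 2 and 3, 0.643% to 0.654% at 1 µg/ml, and 0.966%, 0.822% and 0.82% in replicates 1, 2 and 3 at 10 µg/ml. Shares of counts do not depend on the scaling factors, and the groups did not overlap in them. The choice of genes on RPKM favours such an order.

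**Figure D4:**
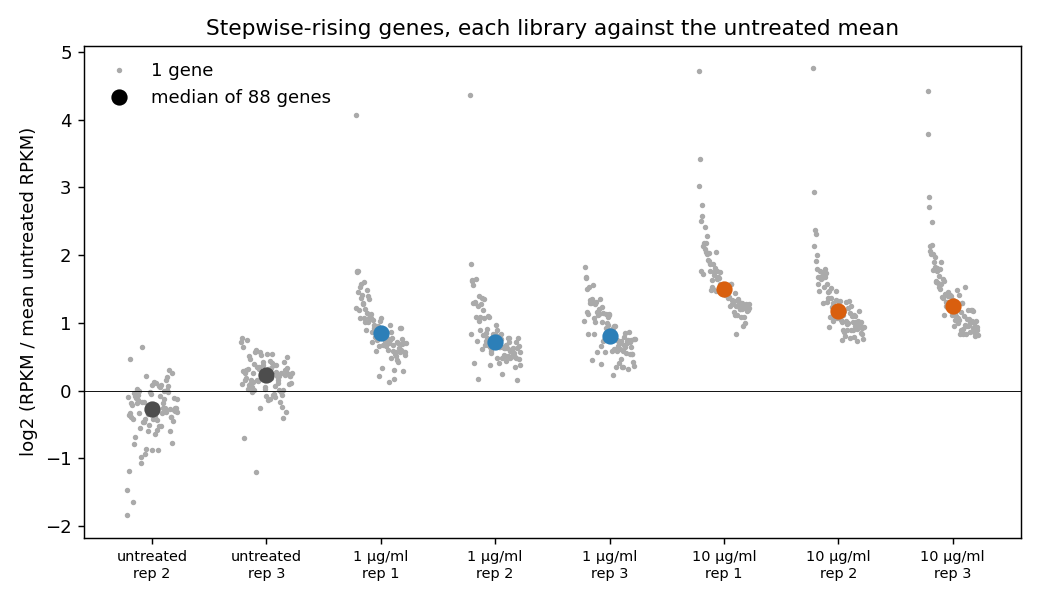
Log2 of RPKM over the gene's untreated mean for the 88 genes (grey points) in each library, with the median gene as a large point. The median is highest in replicate 1 at 10 µg/ml, and untreated replicate 2 lies below untreated replicate 3.

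Gene length was not used by the rule. The 88 genes had a median length of 2144 bases (quartiles 1504 and 3211), where the 10957 genes at or over the minimum had 1994 bases (quartiles 1125 and 3348). In the quartile groups of those genes, from the shortest to the longest, 15, 23, 30 and 20 of the 88 genes were found. The untreated libraries differed from each other by length: the shortest decile of genes deviated from the pair's mean by a median log2 of -0.22 in replicate 2 and 0.22 in replicate 3, and the longest decile by 0.14 and -0.14. The 88 genes deviated by -0.22 and 0.22, where 0.5 was added to every RPKM before all of these logs. The part of this trend in the choice of genes was not tested beyond one alternative: with each library's trend with length removed, 106 genes met the rule, of which 74 were among the 88.

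In the count model over all genes, the 88 genes all passed the filter on low counts. At 10 µg/ml against untreated, 81 of the 88 were called higher at an adjusted p under 0.05 (edgeR's quasi-likelihood test, Benjamini-Hochberg adjustment), beside 7.23% of the 14085 genes tested. At 1 µg/ml against untreated 14 were called, beside 1.51% of genes tested. At 10 against 1 µg/ml 0 were called, beside 0.0% of genes tested. The unadjusted p was under 0.05 in that last comparison for 48 of the 88 and for 4.87% of all genes tested as higher, and DESeq2 called 11 of the 88, beside 0.599% of genes with an adjusted p. The rule used the same libraries and contrasts, so nothing is read from these counts. With quality weights estimated for each library, limma called 13 of the 88 at 10 µg/ml, beside 0.156% of genes tested. At 1 µg/ml against untreated it called 0 of them, beside 0.0% of genes tested.

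Which genes meet the rule depended on single libraries and on scaling. Without untreated replicate 2 the rule gave 81 genes, and 54 of them were among the 88. Without replicate 1 at 10 µg/ml it gave 69, of which 59 were among the 88. Without untreated replicate 3 it gave 196 and without replicate 2 at 10 µg/ml 179, with 76 and 86 of the 88 among them. Leaving out a library makes separation easier, since there are fewer values to order. All 88 must keep their libraries in order without any single library, since taking a value away cannot mix groups already apart. Those lost from a list therefore fell short of a threshold on means. With counts scaled to library size alone 43 genes met the rule, of which 37 were among the 88. The group means of all 88 stayed in order under that scaling, and the single libraries of 60 did, against 83 with DESeq2 size factors. The rule chose the 88 for this order in the same libraries, so nothing is read from these counts. With the deposited RPKM, 2.51% of the 10957 genes had both orders, and the share under the other scalings is not given here. Under scaling to library size the median log2 ratio of the 10957 genes at 10 µg/ml over untreated moved from -0.03 to -0.15.

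**Figure D5:**
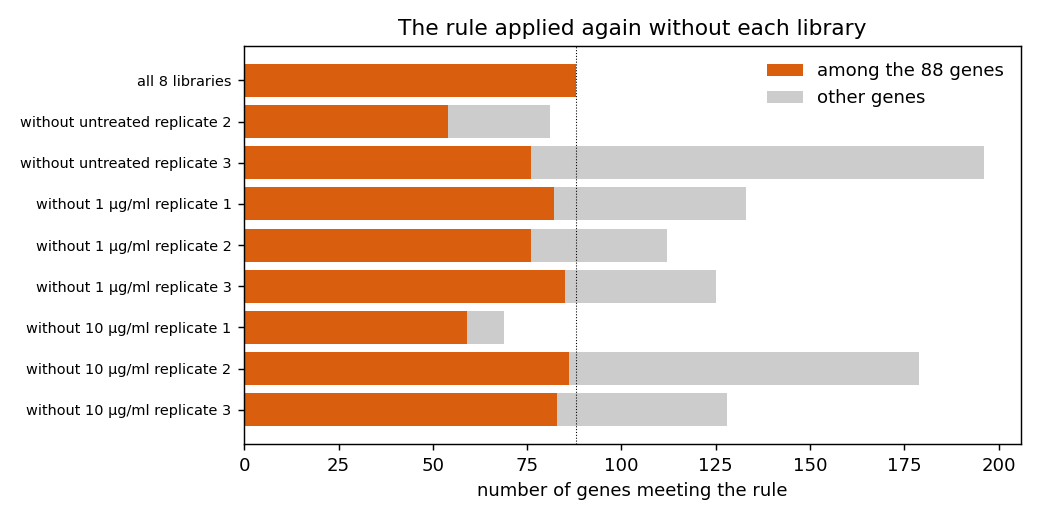
Number of genes meeting the whole rule with all 8 libraries and without each library in turn, split into those among the 88 and others. The count runs from 69 without replicate 1 at 10 µg/ml to 196 without untreated replicate 3, and the overlap with the 88 is smallest, at 54, without untreated replicate 2.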

How the data were processed

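A table of raw counts and a table of RPKM, each with 1 column per library, were deposited by the authors. The build galGal4, bedtools, edgeR 3.12.0, TopHat2 2.0.13 and FastQC 0.10.1 appear, without roles, per the submitters' processing notes. Per the labels' protocols, cDNA came from a SMART-seq v4 kit and libraries from Nextera XT; that chemistry carries no molecular identifiers and does not mark strand, so PCR copies are counted and overlapping genes cannot be told apart. The handling of reads with several matches is not stated in the labels.

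Group means, ratios and the rule were computed from the deposited RPKM with no pseudocount. Gene length was taken from count over RPKM with TMM-adjusted totals, which held within 0.0136% for 5133 genes over 5 RPKM in all libraries. Counts of all 8 libraries entered 1 edgeR 4.0.16 quasi-likelihood model in R 4.3.3 (TMM, a mean per group, filterByExpr with minimum count 10, 14085 genes, 2-sided); DESeq2 1.42.0 and limma 3.58.1 were alternatives. Scripts were tested on simulated data. No pair of libraries within a group looked like repeat deposits of 1 library (chi-square per degree of freedom 60.4 to 301 over genes); this does not show that they are independent, which rests on the labels' word biological. The model did not pair libraries by replicate number, and whether the numbers mark a pairing was not tested. The 88 genes, the settings and the gene lists were chosen with earlier results of these data known. The lists could not be used, since no ID has a symbol, and the rule for genes printed by ID fell back to the gene with the highest fold and the gene with the highest level at 10 µg/ml.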

Additional observations from a re-analysis of the deposited data

How the results depend on the processing

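The number of genes rising stepwise (88) was 43 with scaling to library size alone, 149 with no minimum level, 43 with a minimum of 5 RPKM, 58 with a pseudocount of 1 and 26 with steps of at least 1.5, and 69 to 196 when 1 library was left out. DESeq2 size factors, a minimum of 1 RPKM, medians in place of means and removal of the length trend, the last chosen after seeing the data, kept it within 1.5 times (80, 73, 77 and 106 genes). The median log2 ratio at 10 µg/ml (1.34) and 1 µg/ml (0.75) over untreated became 1.6 and 1.0 with no minimum and 1.77 and 1.03 with steps of at least 1.5. Without single libraries it ran from 1.31 to 1.40 and from 0.73 to 0.89 for lists chosen anew, where the thresholds hold it in place. For the same 88 genes, added after seeing the data, it ran from 1.16 to 1.66 and from 0.58 to 1.08, the extremes being without untreated replicates 2 and 3. Higher thresholds and fewer libraries change the list by construction; for the scaling the cause was not tested. The median length of the 88 genes, 2144 bases, lay above that of all genes in the table (1842). It lay below that of 8945 genes within the set's range of untreated level, trimmed at both ends (2228).

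Calls over all genes, in both directions, at 10 µg/ml against untreated (2304) were 1140 with a replicate block, 885 with only the groups compared, 3705 with DESeq2, 236 with quality weights and 507 to 5008 without single libraries. For 1 µg/ml (396) they were 2 with the replicate block, 0 with only the groups compared, 2176 with DESeq2, 0 with quality weights and 0 to 3469 without single libraries. For 10 against 1 µg/ml (0) they were 230 with DESeq2 and 0 to 1 without single libraries.

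Calls higher among the 88 genes are given with the share of all genes tested that were called higher. At 10 µg/ml (81, beside 7.23%) they were 50 with only the groups compared (2.16%), 13 with quality weights (0.156%) and from 39 (1.41%) to 83 (18.5%) without single libraries. At 1 µg/ml (14, beside 1.51%) they were 29 with library size alone (2.92%), 0 with the replicate block (0.0071%), 0 with only the groups compared (0.0%), 48 with DESeq2 (7.55%), 0 with quality weights (0.0%) and from 0 (0.0%) to 60 (13.4%) without single libraries. Between the doses (0, beside 0.0%) they were 11 with DESeq2 (0.599%) and 0 without any single library. These counts were added after seeing the data, and the cause of the changes was not tested. Without 1 untreated library the spread comes from the dosed groups. Same-numbered libraries of different groups had deviations from their group means that correlated at -0.0252 to 0.185, others -0.145 to 0.0635. Between 1 and 10 µg/ml, same-numbered pairs lay at 0.0563 to 0.185 and the others at -0.145 to 0.0442. Deviations from a group mean cancel within the group, and those of the untreated pair mirror each other. The contrast of same-numbered with other pairs is therefore partly fixed by the centring. The replicate block takes the numbers as a pairing, which was not tested.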
